A study of Tetranychus urticae with 8 samples.

Results

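In adult two-spotted spider mites, 53 genes were read in every library made from females and almost not at all in males. They were selected on the raw read counts of the same libraries that are described here: a gene ID ending in 0, at least 10 reads in each of the 4 female libraries, and at most 3 reads summed over the 4 male libraries. These female-limited genes were 0.466% of the 11377 IDs ending in 0 that reached 10 reads in each female library, and the table held 17654 gene IDs in all. One further ID met both read limits but does not end in 0 (tetur06g06793, with 17, 12, 12 and 19 reads in females and 2 in males) and was left out. The difference between the sexes in these genes is what chose them, so it is described without a test.

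The two-spotted spider mite (Tetranychus urticae) is a small plant-feeding relative of ticks and spiders, kept here as the strain London on leaves of common bean. Each female library came from a pool of about 200 whole adults aged 3 days, and each male library from a pool of about 800 whole adults aged 1 to 2 days, with 4 pools of each sex. Effects of age or pool size and of sex cannot be told apart in these pools. Reads assigned to genes numbered 12912850 to 17443223 per female library and 12082575 to 21414612 per male library.

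Spider mites are haplodiploid: unfertilized eggs give haploid males and fertilized eggs give diploid females. Much of the body of an egg-laying female is ovary and growing eggs, which are filled with yolk, while the male abdomen holds the testes. Transcripts found in a single sex of an animal are therefore often those of the gonads, but whole bodies do not resolve the tissue. In such samples, fewer cells of a type and less RNA per cell cannot be told apart. The RefSeq gene table of this mite matched 0 of the 17654 IDs, so the genes are called by their IDs, no marker of ovary or testis could be checked, and no function is given.

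The label of female-limited held to different degrees along the list. Of the 53 genes, 14 had 0 reads in males, 12 had 1 read, 15 had 2 and 12 had 3. Together they had 35970 reads in females and 78 in males. In the 62804066 reads of the male libraries together, 3 reads are 0.0478 CPM (counts per 1000000 reads), which is the upper limit that a count of 0 allows. For the genes with the fewest female reads this limit is loose. The 39 genes with 1 to 3 male reads had female-to-male ratios, after scaling by library, of 18.0 to 3406, and the lower ends of their 95% exact counting intervals ran from 5.82 to 942. In 27 of these 39 the lower end was 16 or more, and in 12 it was 64 or more. The 14 genes with 0 male reads were at least 22-fold to at least 427-fold higher in females, taking 3 reads over the 4 male libraries as the floor. These intervals and floors cover counting error only.

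The genes were the low end of a continuous range of male reads, with no gap at the limit. Among IDs with at least 10 reads in each female library, 26 had exactly 4 male reads, 18 had 5, 93 had 6 to 10 and 282 had 11 to 30. Just outside the limit stood tetur11g01000, with 1122, 806, 828 and 878 reads in females and 4 in males, and tetur11g01020, with 606, 465, 515 and 469 reads in females and 4 in males. Both had more female reads than most genes inside the limit. At the other edge, tetur04g04520 had 17, 13, 11 and 10 reads in females and 3 in males, and tetur07g07780 had 18, 11, 12 and 13 in females and 3 in males. Among 4 IDs that missed the minimum by 1 read were tetur04g03370, with 23, 13, 9 and 13 reads in females and 2 in males, and tetur12g02780, with 13, 16, 16 and 9 in females and 3 in males. A fixed limit of reads favours genes with few reads in both sexes: 36 of the 2913 IDs with a female mean under 100 reads met it (1.24%), and 17 of the 8464 with a mean of at least 100 (0.201%).

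**Figure D1:**
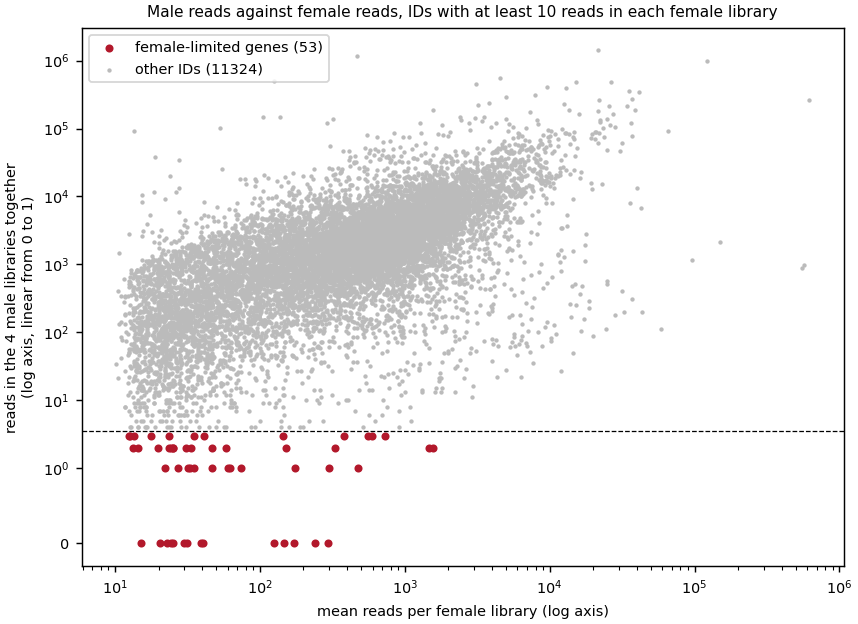
Each point is a gene ID ending in 0 with at least 10 reads in each female library; the horizontal axis gives its mean reads per female library and the vertical axis its reads in the 4 male libraries together. The 53 female-limited genes (red) lie under the dashed line at the limit of 3 male reads, and the points above the line continue without a gap.

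The female reads were concentrated in a few of the genes. Reads per gene also depend on transcript length, which the files do not give, so their order is an order of reads and not of transcripts. The summed level was 624 ± 8.96 CPM in females and 1.28 ± 0.563 CPM in males (SD, n = 4 each). The first 2 genes held 34.0% of the female sum, the first 5 held 54.9% and the first 10 held 74.8%. Mean levels in females ran from 0.880 to 110 CPM with a median of 2.42 CPM, against a median of 22 CPM over all 12885 tested genes. There were 4 genes below 1 CPM, 15 from 1 to 2 CPM, 16 from 2 to 5 CPM, 2 from 5 to 10 CPM, 13 from 10 to 50 CPM and 3 above that. Few lay between the many genes of low count and the 16 genes of 10 CPM or more.

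A pair of genes stood at about 100 CPM in females. tetur14g01460 had 1805, 1402, 1483 and 1608 reads in the female libraries, or 102, 108, 113 and 115 CPM, against 0, 1, 0 and 1 reads in the male libraries. Its ratio of 3406 (95% exact counting interval 942 to 28132) was the highest among genes with a male read. tetur475g00020 had 1780, 1366, 1524 and 1220 reads in females, or 101, 105, 116 and 87.2 CPM, against 1, 1, 0 and 0 reads in males, a ratio of 3186 (interval 882 to 26310). The female libraries were close for the first gene and wider for the second, which was lowest in female replicate 4. Their intervals overlap over most of their width.

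Behind them came tetur32g01720, tetur06g00840 and tetur12g03300, each with 3 male reads. tetur32g01720 had 953, 664, 470 and 848 reads in females, or 54.1, 51.1, 35.8 and 60.6 CPM, against 1, 0, 0 and 2 reads in males. Female replicate 3 was low for it and the other female libraries were near each other. tetur06g00840 had 771, 553, 480 and 566 reads in females, or 43.7, 42.6, 36.6 and 40.4 CPM, against 0, 1, 2 and 0 in males. tetur12g03300 had 634, 490, 515 and 609 reads in females, or 36.0, 37.7, 39.3 and 43.5 CPM, against 3, 0, 0 and 0 in males, so that its male reads all came from male replicate 1. The ratios of these genes were 1058 (interval 362 to 5134), 855 (292 to 4147) and 811 (277 to 3933).

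The next in order of female reads were tetur39g00700, tetur47g00220 and tetur03g00310. tetur39g00700 had 546, 459, 544 and 368 reads in females, or 31, 35.3, 41.5 and 26.3 CPM, against a single read in males, in male replicate 1. tetur47g00220 had 443, 329, 355 and 403 reads in females and 0, 3, 0 and 0 in males, and its female libraries lay within 25.1 to 28.8 CPM. tetur03g00310 had 390, 292, 280 and 351 reads in females and 1, 0, 0 and 1 in males. The first of these varied most between female libraries and the others were steady.

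The highest female levels with no male read belonged to tetur26g00430 and tetur26g00540. tetur26g00430 had 407, 239, 295 and 243 reads in females, or 23.1, 18.4, 22.5 and 17.4 CPM, and was at least 427-fold higher in females. tetur26g00540 had 285, 208, 218 and 250 reads in females, or 16.2, 16, 16.6 and 17.9 CPM, and was at least 346-fold higher. tetur26g00560, whose ID stands nearby, had 382, 257, 333 and 238 reads in females and 1 read in males. Next among the genes at 0 in males were tetur11g01010 with 222, 146, 148 and 170 female reads, tetur12g02810 with 196, 133, 116 and 141, and tetur03g03800 with 134, 140, 86 and 142. The other 9 genes with no male read had means of 15.2 to 40.5 reads per female library.

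Other genes with male reads spanned a wide range of female reads. tetur02g07980 had 220, 122, 162 and 192 reads in females and 1 read in males, and tetur03g04840 had 187, 121, 134 and 138 in females and 2, 1, 0 and 0 in males. tetur29g00610 had 65, 45, 57 and 67 reads in females and 0, 2, 0 and 0 in males, and tetur15g02880 had 55, 40, 43 and 49 in females and 1 in males. At the low end tetur01g08080 had 21, 16, 16 and 18 reads in females and 1, 1, 1 and 0 in males, and tetur23g00690 had 15, 12, 17 and 14 in females and 1, 0, 0 and 1 in males. For such genes the counting intervals of the ratio were wide, 8.41 to 127 for tetur01g08080 and 8.30 to 265 for tetur23g00690.

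**Figure D2:**
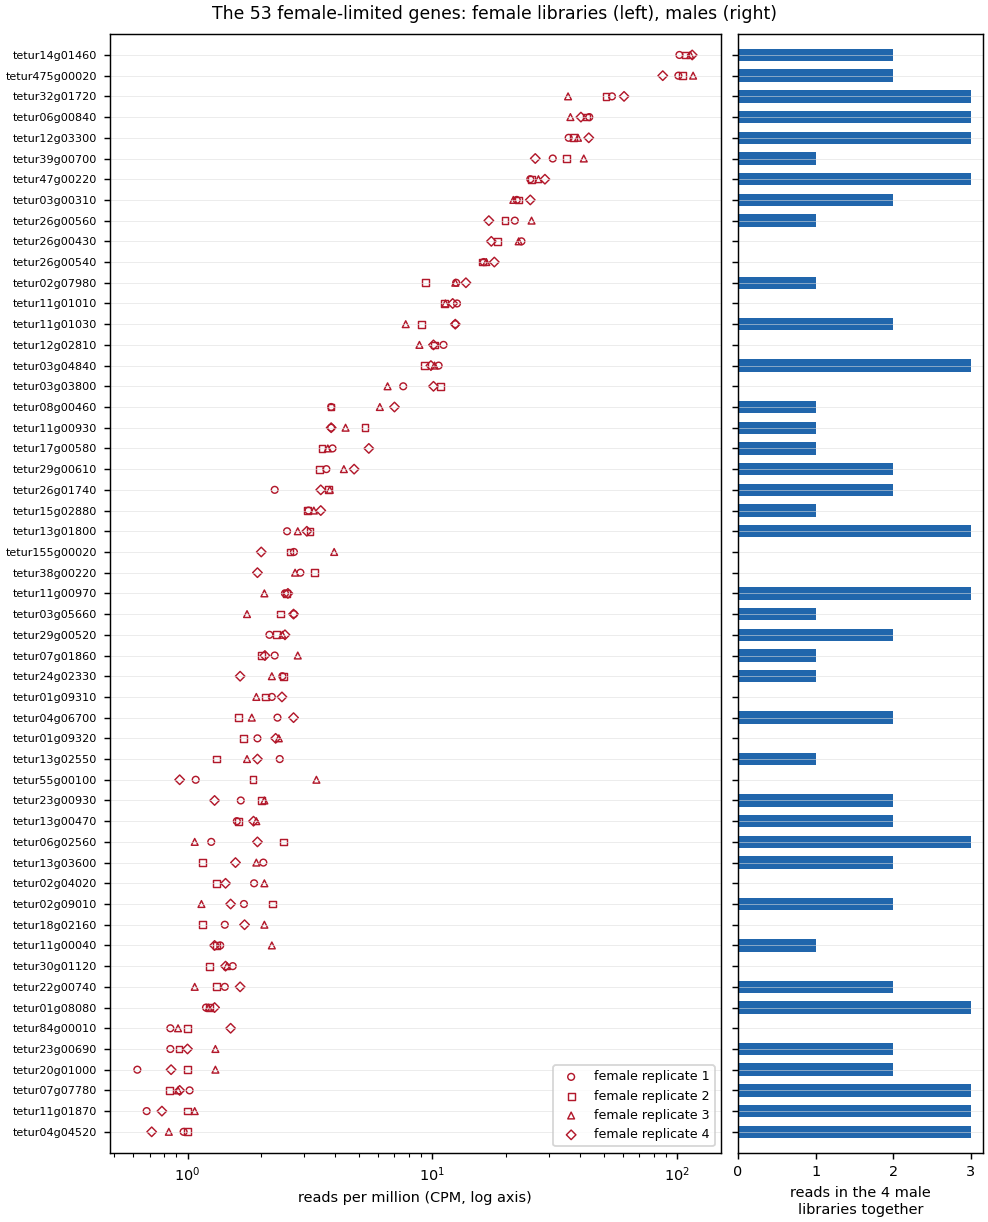
The left panel gives the level of each of the 53 genes in each of the 4 female libraries in CPM on a log axis, one symbol per library, and the right panel the reads in the 4 male libraries together as bars. The genes are ordered by their female mean, from 110 CPM for tetur14g01460 down to 0.880 CPM for tetur04g04520, and the male bars never pass 3 reads at any female level.

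The limit of 3 male reads per gene holds whatever the female count, so the male share of a gene's reads is capped more tightly where female reads are many. The 10 genes with the highest female CPM held 26895 of the female reads (74.8%) and 20 of the 78 male reads (25.6%). Their pooled male level was 0.0687% of the female level (95% exact counting interval 0.0420% to 0.106%). For the other 43 genes, with 9075 female and 58 male reads, it was 0.591% (0.448% to 0.765%). Both values follow from the limit and are given as a description.

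The few male reads were not spread evenly over the male libraries. Male replicate 1 held 29 of the 78, male replicate 2 held 21, male replicate 3 held 11 and male replicate 4 held 17. Scaled by library, the sums were 2.12, 0.994, 0.908 and 1.10 CPM, so that male replicate 1 stood above the other 3, which were near each other. In that library 22 of the 53 genes had a read. IDs just outside the limit, which the rule did not use, were looked at in the same way. The 99 IDs with 4 to 30 male reads and a female mean of at least 100 reads had sums of 35.4, 19.2, 19.7 and 28.3 CPM in male replicates 1 to 4, again highest in male replicate 1. In 2 sets that asked for 10 reads in each female library but not for a mean of 100, male replicate 4 was highest. These sets together contain the 99 IDs. The 137 IDs with 4 to 10 male reads had 15.1, 14.2, 14.1 and 16.9 CPM, and the 282 IDs with 11 to 30 male reads had 91.7, 84.2, 83.4 and 94.4 CPM. The part of male replicate 1 in the male reads of any single gene was not tested.

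In the fit across all genes (edgeR quasi-likelihood test, adjusted p below 0.05 by Benjamini-Hochberg and at least 2-fold), 3467 genes were higher in females, or 26.9% of those tested. The filter on low counts kept 50 of the 53 genes, and all 50 that were kept were called higher in females. This follows from how they were chosen. Their log2 fold changes (female minus male) ran from 4.06 to 11.4 with a median of 7.48, against a median of -0.055 over all tested genes. For the 14 genes with 0 male reads these are values of the fit, not measured ratios, and can lie well above the floors given earlier. For example, tetur02g04020, with 97 female reads, had a fitted log2 fold change of 7.66 and a floor of 35.0-fold. The 3 genes left out by the filter were tetur04g04520, tetur11g01870 and tetur20g01000, with means of 12.5 to 13.2 reads per female library.

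The spread among the female pools was not used by the rule beyond the minimum of 10 reads. The coefficient of variation (CV, the SD over the mean of the 4 female CPM values) had a median of 16.8% over the 53 genes and 7.97% over all tested genes. Most of the genes had few reads, and counting alone gives a CV near 20% at 25 reads, the mean of tetur13g00470 and 2 others. Within classes of female level the medians were closer for low genes. From 1 to 2 CPM the medians were 23.7% for 15 of the genes and 20.7% for 984 other tested genes, and from 2 to 5 CPM they were 16% for 16 and 15.5% for 1358. From 5 to 20 CPM they were 12.3% for 8 genes and 9.60% for 2448 others. From 20 to 200 CPM they were 9.99% for 10 genes and 5.42% for 5777 others. This class is wide and levels within it were not matched: only 3 of the 10 genes were above 50 CPM.

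The wider spread at high level came from part of the genes. Measured against counting error, chi-square per degree of freedom between the female libraries had a median of 3.74 for the 21 genes with a mean of at least 50 reads and 1.80 for the 7655 other tested genes from 50 reads up to the highest mean among them, where 1 is expected from counting alone. It passed 5 in 8 of the 21 (38.1%) and in 13.0% of the others. The highest values were 29.2 for tetur32g01720, 19.2 for tetur475g00020 and 17.2 for tetur39g00700. The lowest CVs among the 21 were 5.03% for tetur26g00540, 5.14% for tetur14g01460, 5.50% for tetur03g04840, 5.62% for tetur11g01010 and 6.45% for tetur47g00220. Measured against counting error, tetur14g01460 was not among the steady genes, with a chi-square per degree of freedom of 4.56. The others of these were at 0.444 to 1.62. By CV the most variable of the 21 were tetur08g00460 at 30.8% and tetur03g03800 at 23.0%, followed by tetur11g01030 at 22.6%, tetur17g00580 at 21.5% and tetur32g01720 at 20.8%. Among the 7655 other genes, 0.679% had a higher CV than tetur08g00460 and 3.17% a higher one than tetur32g01720.

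The genes just named as most variable by CV were all high in female replicate 4 and differed over the other female pools. This was not tested. tetur08g00460 had 68, 50, 80 and 98 reads, or 3.86, 3.85, 6.10 and 7.0 CPM, high in female replicates 3 and 4. tetur03g03800 had 7.6, 10.8, 6.56 and 10.1 CPM, high in female replicates 2 and 4. tetur11g01030 had 12.4, 9.01, 7.78 and 12.4 CPM, high in female replicates 1 and 4, and tetur17g00580 had 3.91, 3.54, 3.74 and 5.50 CPM, high in female replicate 4 alone. tetur32g01720 was highest in female replicate 4 at 60.6 CPM and lowest in female replicate 3 at 35.8 CPM. By contrast, tetur475g00020 and tetur39g00700, variable by chi-square, were lowest in female replicate 4. Of the 53 genes, 7 (13.2%) were highest in female replicate 3 and lowest in female replicate 4, among them tetur475g00020, tetur39g00700, tetur26g00560 and tetur55g00100, and another 7 were highest in female replicate 4 and lowest in female replicate 2. Among the 21 female-limited genes with a mean of at least 50 reads, these orders were found in 3 (14.3%) and 5 (23.8%). Among 9585 other tested genes with such a mean, they were found in 12.5% and 6.24%. The difference was not tested, and these orders, the most frequent among the 53 genes, were picked after the values were seen. tetur55g00100 had the widest relative spread of the 53, with 19, 24, 44 and 13 reads and a CV of 61.6%, at a mean of 25 reads. Over the 53 genes the highest value fell in female replicates 1 to 4 for 11, 8, 16 and 18 genes, and the lowest for 13, 17, 12 and 11 genes.

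**Figure D3:**
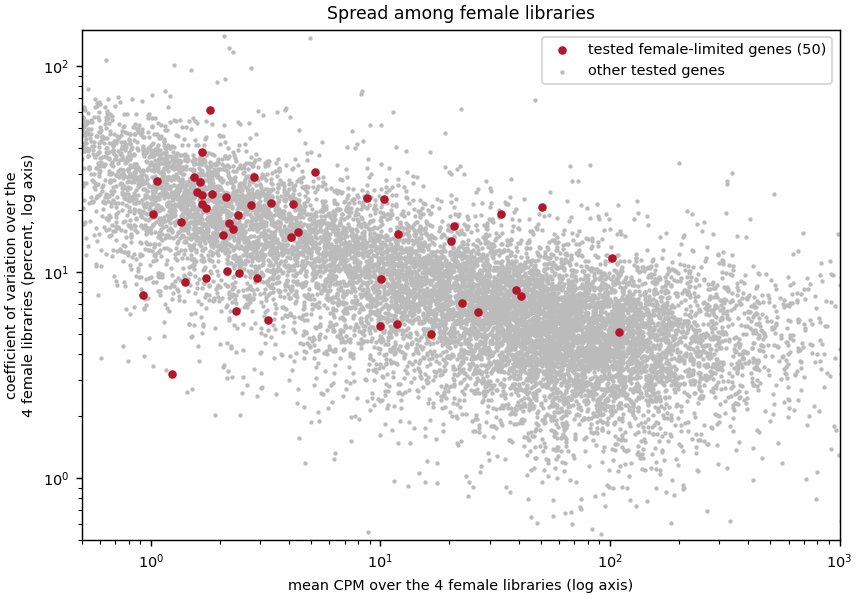
Each point is a tested gene; the horizontal axis is its mean level in the 4 female libraries (CPM, log axis) and the vertical axis its coefficient of variation over those libraries (percent, log axis). The 50 tested female-limited genes (red) lie within the cloud at low level, and from 20 to 200 CPM their median of 9.99% is above the 5.42% of the other genes.

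The IDs were also looked at as an ordered list. An ID is the word tetur, a number, the letter g and a second number; coordinates were not used here, and the order of IDs is taken only as an order of names. The 53 genes fell under 29 of the 402 first numbers that IDs ending in 0 have, and 17 of these held a single gene. The most were 6 under tetur11 and 4 each under tetur03, tetur13 and tetur26. A single pair had directly adjacent IDs, tetur01g09310 with 39, 27, 25 and 34 reads in females and tetur01g09320 with 34, 22, 31 and 32, both with 0 reads in males. Pairs of similar count side by side may be separate genes or share reads; the sequences were not analysed here.

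The longest series of consecutive tested IDs that were all higher in females, 12 IDs from tetur11g00930 to tetur11g01040, held 4 of the female-limited genes. No other series in the table was as long. Its log2 fold changes ran from 2.33 to 10.5 with a median of 7.75, the highest being the fitted value of tetur11g01010, which has no male read. Its summed level was 267 ± 7.03 CPM in females and 5.52 ± 0.221 CPM in males (SD, n = 4 each). Of the 12 IDs, 8 had at most 10 male reads. The 4 female-limited genes in it were tetur11g00930 with 68, 69, 58 and 54 female reads, tetur11g00970 with 44, 33, 27 and 36, tetur11g01010 with 222, 146, 148 and 170, and tetur11g01030 with 218, 117, 102 and 173. Of the IDs between them, tetur11g01000 and tetur11g01020 missed the limit by 1 male read. tetur11g01000 was at 62.9 ± 0.678 CPM in females and 0.0709 ± 0.103 CPM in males (log2 fold change 9.76 ± 0.19 SE; adjusted p = 7.44e-16 by edgeR). tetur11g00950 was at 49.2 ± 2.80 CPM in females and 0.168 ± 0.0823 CPM in males, and tetur11g00940 at 31.5 ± 1.86 CPM in females and 0.113 ± 0.0294 CPM in males.

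This series ended sharply on one side. The ID before it, tetur11g00920, was at 13.2 ± 0.121 CPM in females and 33.7 ± 1.45 CPM in males (log2 fold change -1.35; adjusted p = 2.27e-11 by edgeR), and tetur11g00910, tetur11g00890 and tetur11g00880 were also higher in males. Within the series the least different were tetur11g00980, at 5.65 ± 1.65 CPM in females and 0.846 ± 0.456 CPM in males, and tetur11g01040, at 10.2 ± 0.770 CPM in females and 2.09 ± 0.745 CPM in males. After it, tetur11g01050 was at 52.4 ± 2.79 CPM in females and 43.1 ± 3.53 CPM in males, a difference below 2-fold.

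A second such series, of 8 tested IDs from tetur26g00470 to tetur26g00570, held tetur26g00540 and tetur26g00560. There were 4 series at least that long in all, itself included. Its summed level was 667 ± 38.6 CPM in females and 10.4 ± 1.48 CPM in males, with a median log2 fold change of 8.44. tetur26g00510 had the most reads in it, at 202 ± 22.3 CPM in females and 0.193 ± 0.131 CPM in males (log2 fold change 10.1; adjusted p = 2.96e-16 by edgeR). tetur26g00570 had 4420 reads in females and 5 in males, just past the limit. tetur26g00430 stood outside this series, parted from it by tetur26g00440, which was at 34.4 ± 2.30 CPM in females and 18.3 ± 2.08 CPM in males and below 2-fold. Both series were picked out after their values were seen.

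**Figure D4:**
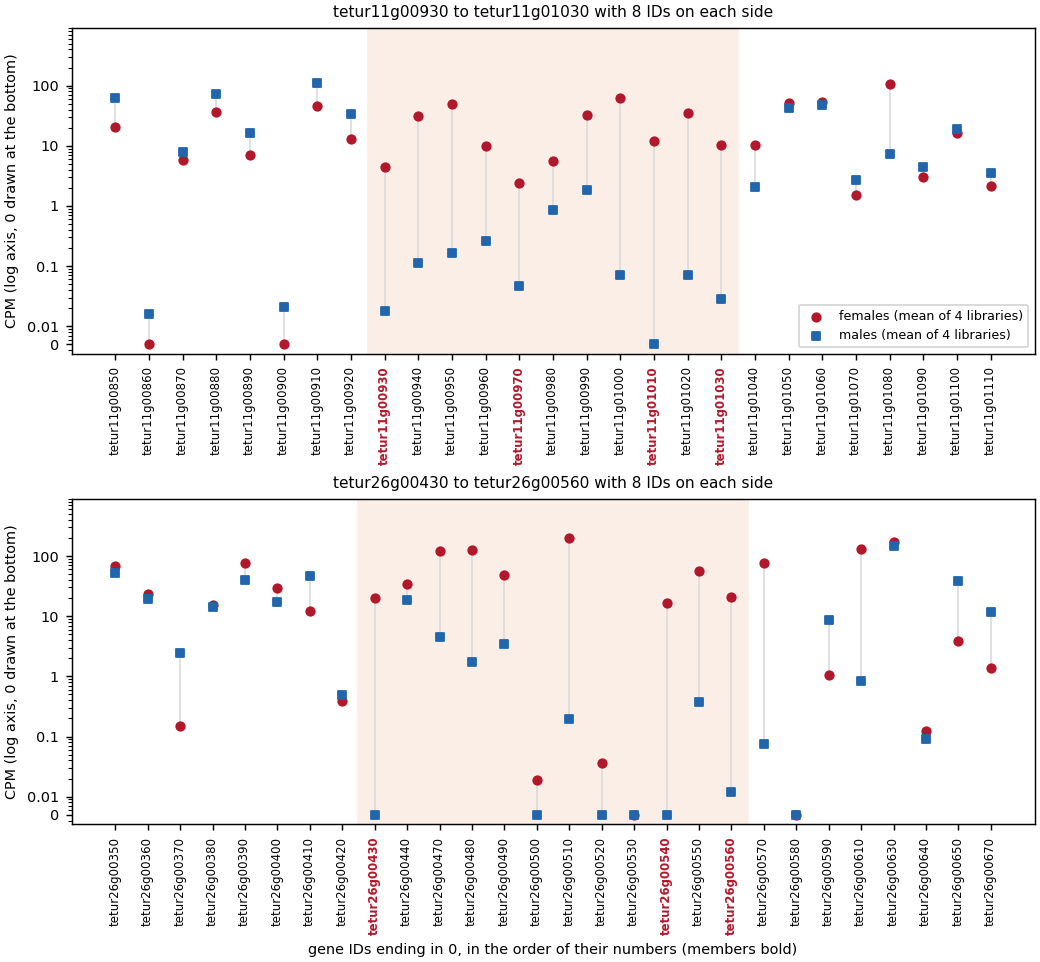
Mean CPM of 4 female libraries (red circles) and 4 male libraries (blue squares) on a log axis, with 0 drawn at the bottom, for consecutive IDs ending in 0 around the female-limited genes of tetur11 (top) and tetur26 (bottom). The shaded IDs run from the first to the last female-limited gene (bold red labels); in the top panel all 11 shaded IDs are higher in females, and the IDs to the left of them are not.

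IDs next to female-limited genes were higher in females in a larger share than all tested genes were; this difference in shares was not tested. The nearest IDs ending in 0 on each side that were not female-limited themselves numbered 99, of which 67 had enough reads to be tested and 11 had no read in any library. Of the 67, 34 were higher in females (50.7%, against 26.9% of all tested genes) and 14 were higher in males (20.9%, against 30.5%). Their median log2 fold change was 1.09. With the 2 nearest IDs on each side, 62 of 131 were higher in females (47.3%). With the nearest ID on each side, but without the female-limited genes from tetur11g00930 to tetur11g01030 and from tetur26g00430 to tetur26g00560, it was 26 of 57 (45.6%).

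Many of these neighbours differed strongly. Of the 67, 11 (16.4%) had a log2 fold change of 6 or more at an adjusted p below 0.05, against 220 of all 12885 tested genes (1.71%), and 6 of the 11 lay outside tetur11 and tetur26. The neighbour with the most reads was tetur39g00720, next to tetur39g00700, at 1013 ± 35.9 CPM in females and 0.810 ± 0.196 CPM in males (log2 fold change 10.29; adjusted p = 8.94e-18 by edgeR). tetur32g01730, next to tetur32g01720, was at 75.2 ± 4.35 CPM in females and 0.131 ± 0.161 CPM in males. tetur12g03320, next to tetur12g03300, was at 91.7 ± 4.72 CPM in females and 0.250 ± 0.142 CPM in males. tetur38g00230, tetur55g00120 and tetur18g02170 were 64.8 ± 7.93, 39.6 ± 6.49 and 201 ± 18.2 CPM in females and 0.196 ± 0.122, 0.110 ± 0.126 and 0.989 ± 0.911 CPM in males. Each of these neighbours had more female reads than the female-limited gene beside it and too many male reads to meet the limit.

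A few neighbours went the other way as far, but the share of all tested genes that did so was not counted. tetur03g05670, next to tetur03g05660, was at 0 CPM in every female library and 4.46 ± 0.540 CPM in males, while tetur03g05660 had 48, 31, 23 and 38 reads in females and 1 in males. tetur07g01870, next to tetur07g01860, was at 0.0985 ± 0.0785 CPM in females and 54.3 ± 4.68 CPM in males (log2 fold change -8.92; adjusted p = 1.77e-15 by edgeR). tetur04g06710, next to tetur04g06700, was at 0.352 ± 0.106 CPM in females and 89.8 ± 7.50 CPM in males. In these cases adjacent IDs were nearly exclusive to opposite sexes. Whether the counting used strand is not given in the sources used here, so reads of overlapping genes could be assigned to either; overlap was not examined.

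The share of adjacent IDs higher in females was also counted for other genes higher in females, by size of their fold change, here with adjacent genes of the same class kept. An ID with a gene of the class on both sides was counted for each side, as tetur11g01020 and tetur26g00550 were. It was 53.5% of 71 tested adjacent IDs for the female-limited genes. For other genes with a log2 fold change of 6 or more it was 46.2% of 286, for those from 4 to 6 it was 38.6% of 508, for those from 2 to 4 it was 37.5% of 1917 and for those from 1 to 2 it was 33.4% of 2866. Every one of these classes lay above the 26.9% of all tested genes. Without the tetur11 and tetur26 genes left out above, 26 of 57 neighbours of female-limited genes were higher in females (45.6%), near the 46.2%. That count took each neighbour once and left out female-limited ones, and the other classes were not recounted in this way. Series of 3 or more consecutive tested IDs higher in females held 58.0% of the tested female-limited genes and 28.1% of all IDs called higher in females. By fold class they held 35.7% of the other genes with a log2 fold change of 6 or more, 32.9% of those from 4 to 6, 29.5% of those from 2 to 4 and 24.6% of those from 1 to 2. The difference between the female-limited genes and the other classes was not tested.

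**Figure D5:**
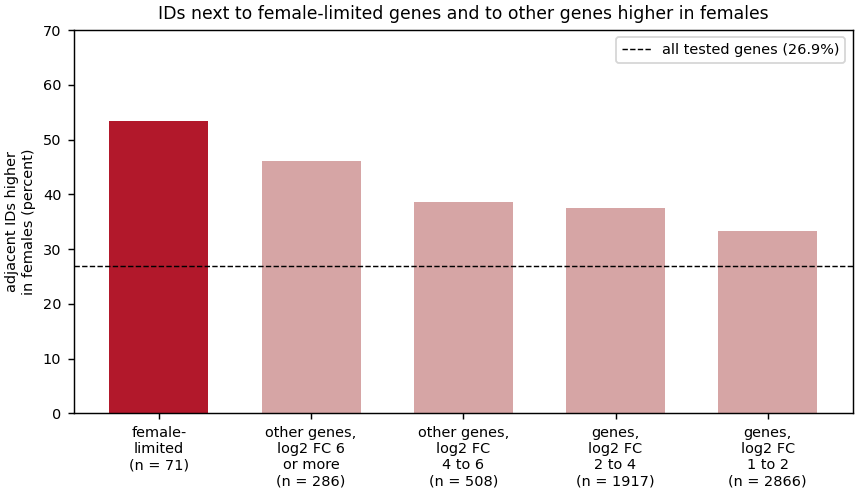
Bars give the percent of tested adjacent IDs that were higher in females. They are drawn for the female-limited genes and for other genes higher in females, grouped by log2 fold change (FC). The number of adjacent IDs stands under each bar, where an ID with a gene of the class on both sides counts for each side. The bars fall from 53.5% for the female-limited genes to 33.4% for genes with a log2 fold change of 1 to 2, and the dashed line marks the 26.9% of all tested genes. For female-limited genes outside the tetur11 and tetur26 series and tetur26g00430, with each neighbour counted once and female-limited ones left out, the share was 45.6% (not drawn).

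With the sexes exchanged in both read limits, 149 IDs ending in 0 were male-limited. They were 1.27% of the 11705 IDs that reached 10 reads in every male library. Their median was 60.8 reads per male library, against 35.0 reads per female library for the female-limited genes, and 69 of the 149 had no read in the other sex, against 14 of the 53. Directly adjacent IDs were common among them: 70 of the 149 stood next to another, against 2 of the 53. Of the tested neighbours of male-limited genes that were not male-limited, 48 of 124 were higher in males (38.7%, against 30.5% of all tested genes). The difference between these 2 sets was not tested.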

How the data were processed

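RNA was sequenced from 4 pools of whole adult females and 4 of whole adult males, as strand-specific libraries selected with oligo dT, per the labels' protocols. The authors deposited raw counts, 1 whole number of reads per gene ID and library. STAR version 2.4.1d and HTSeq version 0.6.1 are named in the submitters' processing notes; the sources used here give no build, annotation, strand setting or treatment of multiply mapped reads. The labels call the libraries biological replicates without naming separate cultures, so the spread behind each p-value may be technical. The table held 0 rows that name no gene.

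The genes and lists were chosen with earlier results of these data known. All 17654 IDs entered the fit: edgeR version 4.0.16 in R version 4.3.3, quasi-likelihood test, sex as the only term, TMM scaling, filterByExpr, Benjamini-Hochberg adjustment over the 12885 genes kept. CPM values and ratios use the same scaling. The step was tested on simulated counts. Planned lists of gene names could not be filled, since the RefSeq table matched 0 IDs. Named IDs were the 10 with the highest female CPM, adjacent ones, the 5 most and 5 least variable with a mean of 50 reads or more, those with 3 male reads and at least 100 in every female library, and those nearest the limits; neighbours, series of IDs, other genes with 0 male reads, examples of low-count genes and others named with them were chosen after their values were seen. Alternatives were other scalings and filters, DESeq2 version 1.42.0, the replicate number as a block, other read limits, thinning to the shallowest library and leaving out each library.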

Additional observations from a re-analysis of the deposited data

Results flagged for a closer look

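A library far from the other 3 of its sex was looked for in 55 groups of 4 values, the female CPM of each of the 53 genes and the summed CPM in each sex, as a gap to the nearest value, over the range, above Dixon's critical value for 4 samples. Chance gives about 1 such group in 20, and 3 were found. Single genes in males, with at most 3 reads in all, were not looked at in this way. tetur11g00040 had 24, 17, 29 and 18 reads in females, and female replicate 3 was apart (0.919 of the range). tetur11g00970 had 44, 33, 27 and 36 reads in females, and female replicate 3 was apart on the low side (0.852 of the range). The summed level of the 53 genes in males was apart in male replicate 1, at 2.12 CPM against 0.994, 0.908 and 1.10 CPM in male replicates 2, 3 and 4 (0.844 of the range).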

How the results depend on the processing

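The number of female-limited genes depended on the read limits: it was 14 with 0 male reads allowed, 190 with at most 10, 35 with at least 20 reads in each female library and 87 with at least 5. It was 54 with IDs of any last digit and 73 with libraries thinned to the shallowest, of which 49 were among the 53. Leaving out single libraries gave 54 to 94 (83, 94 and 84 without male replicates 1, 2 and 4), as each limit is then asked of fewer libraries. With at least 5 CPM in 4 libraries only 17 of the genes were tested and called; every other fit called all that it tested. The count of neighbours higher in females was 62 with 2 IDs on each side, which takes in more IDs, and 30 to 41 in the other fits, or 46.6% to 57.7% of those tested. The count of neighbours at a log2 fold change of 6 or more was 11 in all 16 fits. Upper quartile scaling moved the median log2 fold change of all genes to -0.27 and the genes higher in females to 3011; over all fits they numbered 2716 to 3886. The median CV among females was 12% to 18.3% with 1 female library left out, lowest without female replicate 4, and edgeR's biological coefficient of variation, which leaves out counting error, was 9.92%. From 20 to 200 CPM the CV was 8.33% to 11.9% in the female-limited genes and 4.28% to 5.58% in the others as single female libraries were left out. The replicate numbers did not pair the libraries: the deviations of libraries that share a number had correlations of -0.0926, 0.00167, 0.0185 and 0.0351, 1 of 8 libraries was closest to its own number, and the replicate block gave 3472 genes higher in females and 35 neighbours. Of 77 IDs followed through the fits, 0 reversed, while a call was lost in 1 case and gained in 11. The female-limited genes among them could hardly reverse, given how they were chosen.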
